A study of Mus musculus with 8 samples.

Results

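The 32 genes described here encode enzymes that make cholesterol and fatty acids, proteins that sense sterols and control those enzymes, and 1 sterol transporter. They were chosen by name as members of these pathways and are 32 of the 53700 genes in the count table. The transcripts were measured by RNA-Seq in LLC cells, a mouse lung tumor line named for the Lewis lung carcinoma. WT cells and cells in which Hif1an had been targeted (FIH-KO) were cultured for 16 hours in normoxia (21% O2) or hypoxia (1% O2). Each of the 4 groups, WT normoxia, WT hypoxia, FIH-KO normoxia and FIH-KO hypoxia, holds 2 libraries. Hif1an encodes factor inhibiting HIF (FIH), an oxygen-dependent asparaginyl hydroxylase that limits the transcriptional activity of the hypoxia-inducible factors. The deletion was made with CRISPR/Cas9 and a guide to exon 2, followed by single-cell dilution, so that clonal differences from WT cells and the loss of FIH cannot be told apart. How many clones the libraries represent is not given in the sources used here. Nothing in the labels says that the 2 libraries of a group came from separate cultures, so p-values measure the spread between these libraries, which may be technical. The design asks how the pathway genes responded to low oxygen in each genotype, how they differed between genotypes at each oxygen level, and whether the response to oxygen depended on the genotype.

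Cells make cholesterol from acetyl-CoA through mevalonate, isoprenoid units, squalene and lanosterol, and fatty acids by lengthening and desaturating acetyl-CoA-derived chains. Transcription of both pathways is driven by the sterol regulatory element-binding proteins (SREBPs), which Scap carries from the endoplasmic reticulum to the Golgi for cleavage when membrane sterol is low and which Insig proteins hold back when it is high. Several of the steps consume molecular oxygen: the epoxidation of squalene, the demethylations of lanosterol and its products, the sterol C5 desaturation and the fatty acid desaturations. SREBPs bind sterol regulatory elements (SREs) and E-boxes in target promoters, often beside CCAAT boxes bound by NF-Y.

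Promoter windows of 25 of the 32 genes were matched by symbol in RefSeq (build GRCm38.p6), each from 250 bases before the start of transcription to 50 bases after it. The letters searched, on both strands, were TCACNCCAC for the SRE, CCAAT, the palindrome CACGTG for the E-box, and, for the core of a hypoxia response element, ACGTG, with GCGTG counted as the same core. The E-box also contains the first of these cores. CCAAT was found for 20 of the 25 genes (80%) against 41.1% of the 27025 genes with a window. CACGTG was found for 5 (20% against 8.09%) and the hypoxia response element core for 16 (64% against 46.7%). TCACNCCAC was found only for Hmgcs1, which is 4% of these genes against 1.44% of all genes, and with 1 fixed base allowed to differ it was found for 11 (44% against 26.7%). These shares describe letters, not bound sites. The 250 bases before the start are shown for 4 genes that stand for the patterns in the expression data: Hmgcs1 and Hsd17b7 were higher in hypoxia and in FIH-KO cells, Fasn was higher in hypoxia and did not pass the test between genotypes, and Mvk passed only between genotypes in hypoxia. Capitals mark the letters of the SRE and the E-box, and CCAAT, which reads ATTGG where it lies on the other strand.
Hmgcs1 (chr13:119690101-119690350, plus strand): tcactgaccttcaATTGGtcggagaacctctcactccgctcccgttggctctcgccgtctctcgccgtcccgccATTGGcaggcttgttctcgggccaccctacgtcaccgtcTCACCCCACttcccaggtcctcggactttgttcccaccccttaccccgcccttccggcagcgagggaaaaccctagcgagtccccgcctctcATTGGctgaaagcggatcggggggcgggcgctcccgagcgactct
Hsd17b7 (chr1:169969206-169969455, minus strand): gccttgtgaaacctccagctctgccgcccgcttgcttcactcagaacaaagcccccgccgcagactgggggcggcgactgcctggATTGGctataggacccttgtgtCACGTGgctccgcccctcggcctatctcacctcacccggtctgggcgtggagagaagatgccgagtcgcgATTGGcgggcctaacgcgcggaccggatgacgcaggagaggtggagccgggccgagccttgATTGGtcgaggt
Fasn (chr11:120824548-120824797, minus strand): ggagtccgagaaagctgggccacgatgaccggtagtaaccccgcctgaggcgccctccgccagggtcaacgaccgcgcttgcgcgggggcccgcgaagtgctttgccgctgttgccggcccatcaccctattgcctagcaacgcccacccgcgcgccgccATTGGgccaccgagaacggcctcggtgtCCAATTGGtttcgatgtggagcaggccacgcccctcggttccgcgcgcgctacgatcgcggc
Mvk (chr5:114444019-114444268, plus strand): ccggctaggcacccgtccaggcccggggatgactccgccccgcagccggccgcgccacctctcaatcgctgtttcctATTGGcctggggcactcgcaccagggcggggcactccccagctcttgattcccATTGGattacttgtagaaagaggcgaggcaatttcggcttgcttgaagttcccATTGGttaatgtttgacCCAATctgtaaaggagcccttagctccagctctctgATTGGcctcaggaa
In the Hmgcs1 window the SRE letters begin 137 bases before the start, between CCAAT boxes at 176 and 45 bases. Hsd17b7 has CACGTG at 143 bases and CCAAT at 165, 73 and 12 bases. Fasn holds CCAAT at 90, 62 and 59 bases, and Mvk at 173, 120, 67, 50 and 14 bases. Among the 20 genes with CCAAT in a window, 13 rose in hypoxia in WT cells and 12 in FIH-KO cells, and 11 in normoxia and 9 in hypoxia were higher in FIH-KO than in WT cells. Among the 5 without it these counts were 2, 3, 0 and 1, and 1 gene was lower in each of the first 3 comparisons. Of all tested genes, 16.9%, 8.84%, 15.2% and 14.1% were higher in the same order. The 5 without CCAAT were Scap, Acat2, Acaca, Elovl6 and Fads2. Only Acat2 among them is a sterol enzyme, so the presence of CCAAT and the role of a gene cannot be told apart here. No window was found for Sqle, Fdft1, Fdps, Stard4, Scd1, Scd2 and Fads1.

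Library totals ran from 14519731 to 18177016 counts. In the FIH-KO libraries Hif1an was measured at 34.7 and 37.6 CPM (reads in each 1000000 of the TMM-scaled library) in normoxia and at 45.5 and 51.0 in hypoxia, below the 82.2 to 90.1 of the WT libraries. Its log2 fold change was -1.20 ± 0.12 (SE) in normoxia and -0.85 ± 0.12 in hypoxia (edgeR, adjusted p = 3.09e-05 and 3.14e-04), and the transcript was thus reduced but still present. Counts do not show whether the remaining transcript encodes the protein. The authors reported that FIH protein was absent from their FIH-KO cells by Western blot and that selected clones were sequenced. Of 9 hypoxia-induced genes taken as a check (among them Vegfa, Slc2a1 and Bnip3), 9 rose in WT cells and 8 in FIH-KO cells. Over all tested genes 16.9% and 8.84% rose. The exception was Car9, with means of 0.26 CPM in normoxia and 0.22 in hypoxia in FIH-KO cells, against 0.12 and 2.29 in WT cells. Its 2 to 49 counts are near the floor. The cells held Krt8, Krt18 and Vim, while the epithelial genes Epcam and Cdh1 had at most 1 count in any library. Of 4 alveolar type 2 markers Sftpc was at 0 and Sftpb and Lamp3 stayed under 1 CPM, but Abca3 was measured at 31.01 to 60.01 CPM, lower in the hypoxia libraries than in the normoxia libraries. Of 5 leukocyte markers, 4 stayed under 1 CPM in every library, with Cd3e and Adgre1 at 0. Their summed level was 0.0642 to 0.118 CPM in WT normoxia, 1.70 to 3.08 in WT hypoxia, 0 to 0.0595 in FIH-KO normoxia and 0.715 to 1.997 in FIH-KO hypoxia, most of it Csf1r in hypoxia. The summed level of 3 endothelial markers (Pecam1, Cdh5 and Kdr) was 0.296 to 0.321 CPM in WT normoxia and 1.77 to 2.41 in WT hypoxia. In FIH-KO cells it was 0.178 to 0.224 CPM in normoxia and 0.325 to 0.437 in hypoxia. These sums are near the floor. Cdh5 had 35 and 18 counts in the WT hypoxia libraries and at most 5 in any other library. Pecam1 and Kdr had at most 8 and 3 counts. The sum of 3 mesenchymal markers (Vim, Cdh2 and Fn1) was 4348 to 5099.8 CPM in WT normoxia and 5511 to 5959.98 in WT hypoxia, against 8178 to 8978 and 9138 to 10991 in FIH-KO cells. That of 5 epithelial markers was 325 to 351 and 225 to 283 CPM in WT cells, against 436 to 537 and 333 to 446. Most of this epithelial difference was Krt8, with means of 150.3 and 121.9 CPM in WT cells, against 304.5 and 243.7. Krt18 had means of 187.1 and 124.5 CPM, against 181.1 and 135.2, and Krt19 0.839 and 7.67, against 0.803 and 10.9. Vim and Fn1 carried the mesenchymal difference, while the group means of Cdh2 ran from 23.1 to 27.9 CPM. The 4 adipocyte and hepatocyte markers summed to at most 0.296 CPM in any library. The part of these markers in the results was not tested.

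All 32 genes passed the filter on low counts and were tested among 13933 genes. In hypoxia, 20 of the 32 rose and 1 fell in WT cells, where 16.9% of all tested genes rose and 15.5% fell. In FIH-KO cells 20 rose and 1 fell as well, against 8.84% and 8.0% of all tested genes. The median log2 fold change over the 32 genes was 0.75 in WT cells and 0.73 in FIH-KO cells, while the medians over all tested genes were -0.0011 and -0.027. In bulk RNA a lower level in each cell and fewer cells with the transcript cannot be told apart. Of the genes that rose, 18 were shared, which is 90% of either list. Sc5d and Fads1 passed the test only in WT cells, and Stard4 and Elovl6 only in FIH-KO cells. The 1 gene that fell was Scap in both genotypes. These calls come from edgeR's quasi-likelihood test at an adjusted p under 0.05, with 2 libraries per group. Fewer of the 32 were called higher in FIH-KO cells when FIH-KO hypoxia replicate 2 or FIH-KO normoxia replicate 2 was left out. Over all tested genes, more were called without the first of these libraries and fewer without the second. When a library is left out, the lone library of its group is assumed to vary like the others. The call was kept under all 15 alternative settings by 14 of the 20 genes in WT cells and 11 of the 20 in FIH-KO cells. Those that lost it under at least 1 setting were Mvd, Idi1, Nsdhl, Sc5d, Acaca and Fads1 in WT cells, and Mvd, Idi1, Fdft1, Nsdhl, Tm7sf2, Stard4, Acaca, Elovl6 and Fads2 in FIH-KO cells.

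**Figure D1:**
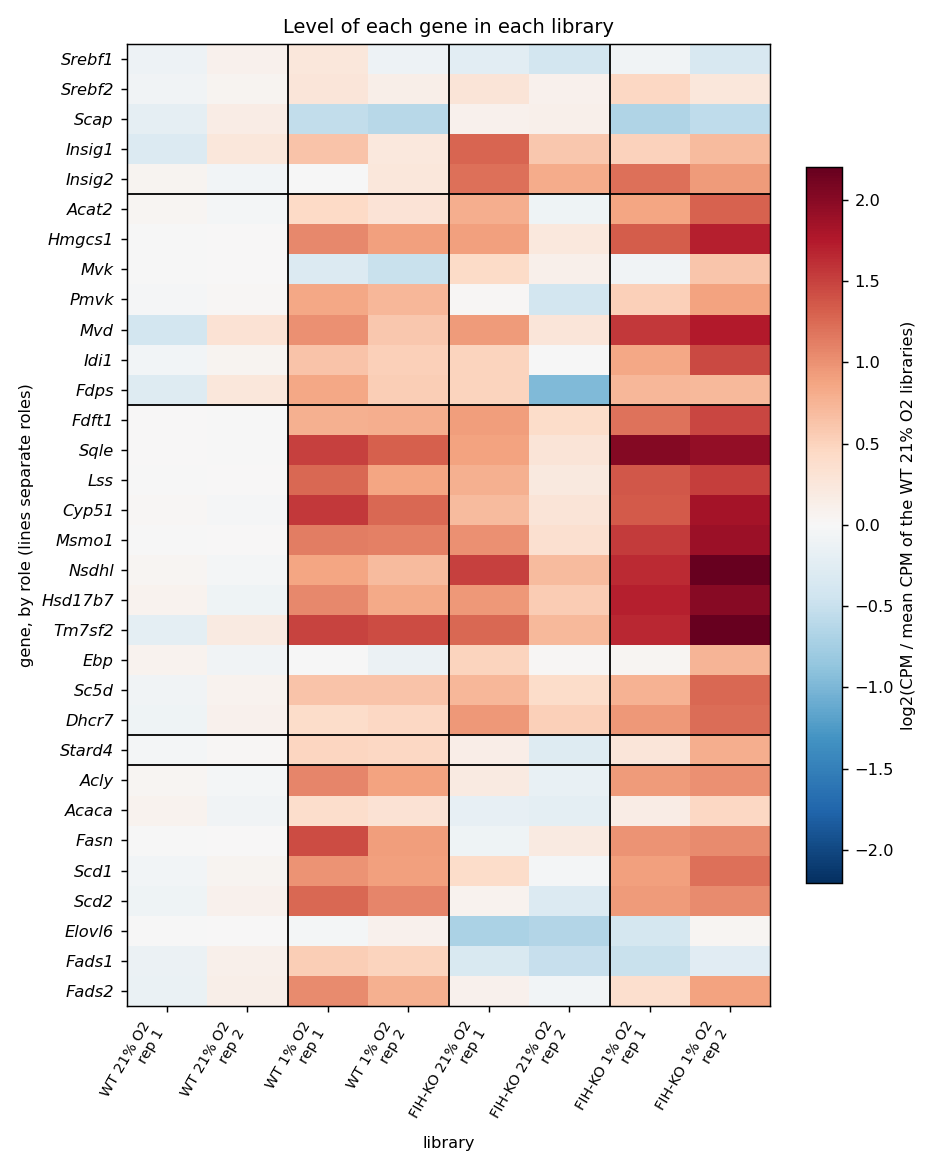
Level of each of the 32 genes (rows, by role) in each of the 8 libraries (columns), as log2 of its CPM over the mean CPM of the WT normoxia libraries. Red is higher and blue lower: most sterol and fatty acid enzymes are red in the hypoxia libraries, and in the FIH-KO normoxia libraries the sterol enzymes are redder in replicate 1 than in replicate 2.

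Against WT cells, FIH-KO cells had 13 of the 32 genes higher and 2 lower in normoxia, where 15.2% of all tested genes were higher and 13.0% lower. In hypoxia 12 were higher and 1 was lower, against 14.1% and 13.9%. All of the genes that were higher belong to sterol synthesis or its control: 11 of 18 sterol enzymes at either oxygen level, with Insig1 and Insig2 in normoxia and Insig2 in hypoxia. None of the 8 fatty acid enzymes was higher, and Elovl6 and Fads1 were lower in normoxia and Fads1 in hypoxia. The median log2 fold change of the 18 sterol enzymes was 0.59 in normoxia and 0.56 in hypoxia, and that of the 8 fatty acid enzymes -0.04 and -0.19, beside -0.0025 and -0.032 over all tested genes. Elovl6 (chromosome 3), Scd1, Scd2, Fads1 and Fads2 (chromosome 19) lie on chromosomes that were lower as a whole in FIH-KO cells, as given below. So do the sterol enzymes Pmvk, Fdps and Tm7sf2. Minus the chromosome median in normoxia, Scd1, Scd2, Fads2, Elovl6 and Fads1 stood at 0.58, 0.29, 0.40, -0.31 and -0.04. In hypoxia they stood at 0.57, 0.27, 0.19, 0.22 and -0.43. Pmvk, Fdps and Tm7sf2 stood at 0.18, 0.28 and 1.39 in normoxia and at 0.32, 0.41 and 0.94 in hypoxia. The part of position in the difference between the lists was not tested. At both oxygen levels 8 genes were higher, which is 61.5% of the normoxia list and 66.7% of the hypoxia list. 

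The number of genes called between genotypes changed when libraries were left out, while the median difference of the sterol enzymes kept its direction. Over the 8 fits that each leave out 1 library, the median of the 18 sterol enzymes lay between 0.25 and 0.82 at 21% O2 and between 0.33 and 0.79 at 1% O2. Within FIH-KO normoxia, replicate 1 exceeded replicate 2 for 18 of 18 sterol enzymes, with a median ratio of 1.46, while the median log2 ratio over all tested genes was 0.01. Within FIH-KO hypoxia, replicate 2 exceeded replicate 1 for 16 of 18. The summed level of the 18 enzymes was 1613 and 1093 CPM in FIH-KO normoxia, against 888 and 911 in WT normoxia. In hypoxia it was 2269 and 2786 CPM in FIH-KO cells, against 1841 and 1653 in WT cells. In both oxygen conditions the sums of the FIH-KO libraries lay above those of the WT libraries, but by very different margins in the 2 replicates. Fewer of the pathway genes were called higher in normoxia without FIH-KO normoxia replicate 1, WT normoxia replicate 1 or WT normoxia replicate 2. Each of these fits also called fewer of all tested genes, so the drop is not particular to the pathway genes. In hypoxia both counts fell without FIH-KO hypoxia replicate 2, WT hypoxia replicate 1 or WT hypoxia replicate 2. More of the pathway genes were called lower without FIH-KO hypoxia replicate 2. Under all 15 settings the call was kept by Insig2 in normoxia and by Insig2, Nsdhl and Hsd17b7 in hypoxia among genes that were higher, and by Elovl6 in normoxia and Fads1 in hypoxia among genes that were lower.

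**Figure D2:**
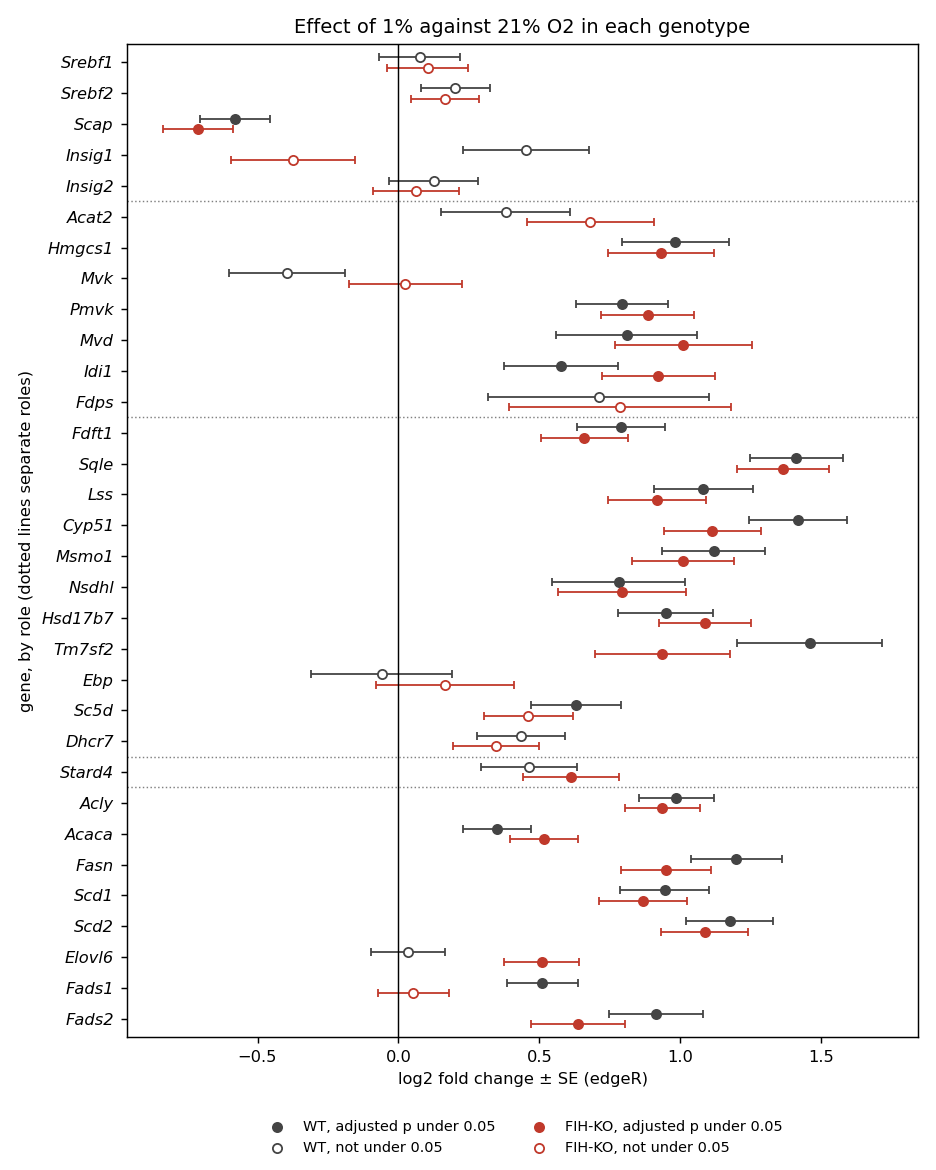
Log2 fold change of hypoxia against normoxia for each gene (± SE, edgeR) in WT cells (grey) and FIH-KO cells (red). Filled points passed the adjusted p of 0.05. Sqle lies at 1.41 and 1.36, and Scap at -0.58 and -0.71.

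The test of the difference between genotypes in the effect of hypoxia called 0 of the 32 genes and 0.0% of all 13933. At an unadjusted p under 0.05 there were 925 genes, 3 of them members: Insig1 (difference -0.82 ± 0.31, FIH-KO minus WT), Elovl6 (0.47 ± 0.19) and Fads1 (-0.46 ± 0.18), all with an adjusted p of at least 0.65. DESeq2 called 37 genes of the whole table and 0 members. With no filter beyond 1 count in any library, edgeR called 143 genes, among them Insig1. A gene called in 1 genotype or at 1 oxygen level only is therefore not shown to differ between them in what follows.

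Of the 5 genes that sense sterols and control the pathway, 4 did not pass the test in hypoxia in either genotype. The genes of the SREBPs themselves passed in no comparison. Positions of genes are given here on build GRCm39, from the GENCODE annotation. Srebf1 (ENSMUSG00000020538.16, chr11:60089913-60113407) encodes the SREBP that favors fatty acid genes and ranged from 107 to 168 CPM, with log2 fold changes of 0.08 and 0.10 with hypoxia and -0.32 and -0.29 between genotypes. Srebf2 (ENSMUSG00000022463.9, chr15:82031382-82093201) encodes the SREBP that favors cholesterol genes and ranged from 281 to 406 CPM, with 0.20, 0.17, 0.19 and 0.16 in the same order. None of these 8 values passed the test. SREBP activity is set by cleavage of the protein, which counts of transcripts do not measure.

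Scap (ENSMUSG00000032485.15, chr9:110158229-110214024), the escort that carries SREBPs to the Golgi, was measured at 156 and 201 CPM in WT normoxia, 122 and 116 in WT hypoxia, 191 and 193 in FIH-KO normoxia and 113 and 122 in FIH-KO hypoxia. Every hypoxia library lay below every normoxia library. Scap fell by 0.58 ± 0.13 on the log2 scale in WT cells (adjusted p = 0.00443) and by 0.71 ± 0.13 in FIH-KO cells (adjusted p = 0.00289). Without WT normoxia replicate 2 the WT value was -0.42 and no longer passed (adjusted p = 0.065). Scap did not pass the test between genotypes. The 2 Insig genes, which encode the proteins that retain Scap in the endoplasmic reticulum, did not follow it. Insig2 (ENSMUSG00000003721.15, chr1:121181760-121260400) was measured at 46.5 and 43.03 CPM in WT normoxia, 44.3 and 53.4 in WT hypoxia, 103 and 78.5 in FIH-KO normoxia and 104 and 85.3 in FIH-KO hypoxia, so that each FIH-KO library exceeded each WT library. Its log2 fold change was 1.02 (SE 0.16, adjusted p = 6.50e-04) in normoxia and 0.96 (SE 0.16, adjusted p = 0.00102) in hypoxia, 2.03-fold and 1.94-fold. With hypoxia it was 0.13 and 0.06, neither of which passed. Insig1 (ENSMUSG00000045294.12, chr5:28276315-28283668), itself an SREBP target, was measured at 62.8 and 92.3 CPM in WT normoxia, 120.4 and 91.5 in WT hypoxia, 188 and 117 in FIH-KO normoxia and 109.7 and 125 in FIH-KO hypoxia. It was higher in FIH-KO cells in normoxia by 0.97 (SE 0.22, adjusted p = 0.00699), with FIH-KO normoxia replicate 1 well above every other library. Without that library the difference was 0.57 (adjusted p = 0.113), and without WT normoxia replicate 1 it was 0.69 (adjusted p = 0.105). In hypoxia the genotypes overlapped, at 0.15 ± 0.22 (adjusted p = 0.664).

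The early mevalonate pathway leads from acetyl-CoA to farnesyl diphosphate. Of its 7 genes, 4 rose in hypoxia in each genotype (Hmgcs1, Pmvk, Mvd and Idi1), beside 16.9% and 8.84% of all tested genes. The medians of the 7 were 0.71 in WT cells and 0.88 in FIH-KO cells. Hmgcs1 (ENSMUSG00000093930.3, chr13:120151915-120170470), HMG-CoA synthase, was measured at 124 and 125 CPM in WT normoxia, 259 and 233 in WT hypoxia, 232 and 146 in FIH-KO normoxia and 313 and 407 in FIH-KO hypoxia. In hypoxia it was 1.98-fold higher in WT cells and 1.91-fold higher in FIH-KO cells, with log2 fold changes of 0.98 (SE 0.19, adjusted p = 0.00224) and 0.93 (SE 0.19, adjusted p = 0.00597). It was also higher in FIH-KO cells in both normoxia, by 0.60 (SE 0.19, adjusted p = 0.0322), and hypoxia, by 0.55 (SE 0.19, adjusted p = 0.0451). In each of these comparisons the groups did not overlap.

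Pmvk (ENSMUSG00000027952.17, chr3:89361758-89376323), phosphomevalonate kinase, was measured at 28.1 and 29.5 CPM in WT normoxia, 51.9 and 47.9 in WT hypoxia, 29.1 and 21.9 in FIH-KO normoxia and 41.2 and 52.9 in FIH-KO hypoxia. It rose in hypoxia by 0.79 (SE 0.16, adjusted p = 0.00353) in WT cells and 0.88 (SE 0.17, adjusted p = 0.004003) in FIH-KO cells, and the genotypes overlapped at either oxygen level. Mvd (ENSMUSG00000006517.6, chr8:123160336-123170324), mevalonate diphosphate decarboxylase, was measured at 17.7 and 29.3 CPM in WT normoxia, 46.9 and 35.4 in WT hypoxia, 45.2 and 28.2 in FIH-KO normoxia and 68.8 and 78.8 in FIH-KO hypoxia. It rose in hypoxia by 0.81 (SE 0.25, adjusted p = 0.0273) and 1.01 (SE 0.24, adjusted p = 0.0153), and in hypoxia it was higher in FIH-KO cells by 0.84 (SE 0.24, adjusted p = 0.0224). Idi1 (ENSMUSG00000058258.15, chr13:8935537-8942487), which interconverts the isoprenoid units, was measured at 24.9 and 26.99 CPM in WT normoxia, 40.1 and 37.3 in WT hypoxia, 36.4 and 25.9 in FIH-KO normoxia and 46.9 and 71.1 in FIH-KO hypoxia. Its rise was 0.58 (SE 0.20, adjusted p = 0.0461) in WT cells and 0.92 (SE 0.20, adjusted p = 0.00882) in FIH-KO cells, and in hypoxia the FIH-KO libraries were higher by 0.61 (SE 0.20, adjusted p = 0.0379). Both FIH-KO hypoxia libraries were above both WT hypoxia libraries for Mvd and for Idi1.

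Acat2 (ENSMUSG00000023832.15, chr17:13161367-13179641), the cytosolic acetoacetyl-CoA thiolase, and Mvk (ENSMUSG00000041939.15, chr5:114582267-114601803), mevalonate kinase, passed only between genotypes in hypoxia. Acat2 was measured at 58.2 and 55.4 CPM in WT normoxia, 77.4 and 70.4 in WT hypoxia, 99.2 and 53.4 in FIH-KO normoxia and 104 and 140.3 in FIH-KO hypoxia, with a difference of 0.73 (SE 0.23, adjusted p = 0.0309). Its response to hypoxia was 0.38 ± 0.23 in WT cells and 0.68 ± 0.23 in FIH-KO cells (adjusted p = 0.226 and 0.05803). Mvk was measured at 26.8 and 27.2 CPM in WT normoxia, 21.9 and 19.1 in WT hypoxia, 36.2 and 29.2 in FIH-KO normoxia and 25.5 and 41.1 in FIH-KO hypoxia, and the difference in hypoxia was 0.70 (SE 0.20, adjusted p = 0.0241). In WT cells the hypoxia libraries of Mvk lay below the normoxia libraries, without passing the test (-0.39 ± 0.21, adjusted p = 0.165). Fdps (ENSMUSG00000059743.13, chr3:89000888-89019213), farnesyl diphosphate synthase, had 25 to 89 counts, far fewer than its neighbors in the pathway. Its log2 fold changes of 0.71 and 0.79 with hypoxia had standard errors of 0.39 and 0.39 and did not pass. Processed pseudogene copies (Gm3571, with 14 to 38 counts, Gm5873 and Gm8163) share sequence with it, so its counts are uncertain.

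From squalene to cholesterol, 9 of 11 genes rose in hypoxia in WT cells and 8 in FIH-KO cells, beside 16.9% and 8.84% of all tested genes. Between genotypes 10 of the 11 were higher in FIH-KO cells at 21% O2 and 6 at 1% O2. Over all tested genes 15.2% and 14.1% were higher. Sqle (ENSMUSG00000022351.15, chr15:59186869-59203043), squalene epoxidase, performs the first step that consumes oxygen. It was measured at 122 and 122 CPM in WT normoxia, 345 and 306 in WT hypoxia, 226 and 149 in FIH-KO normoxia and 496 and 469.9 in FIH-KO hypoxia. In hypoxia Sqle was 2.66-fold higher in WT cells and 2.57-fold higher in FIH-KO cells, with log2 fold changes of 1.41 (SE 0.16, adjusted p = 9.87e-05) and 1.36 (SE 0.16, adjusted p = 2.44e-04). Between genotypes it differed by 0.62 (SE 0.16, adjusted p = 0.01404) in normoxia and 0.57 (SE 0.16, adjusted p = 0.0198) in hypoxia. The 4 groups did not overlap: WT normoxia was lowest, then FIH-KO normoxia, WT hypoxia and FIH-KO hypoxia. Fdft1 (ENSMUSG00000021273.12, chr14:63382189-63417027), squalene synthase, was measured at 58.2 and 57.1 CPM in WT normoxia, 99.4 and 99.8 in WT hypoxia, 109 and 75.8 in FIH-KO normoxia and 132 and 159.5 in FIH-KO hypoxia. It rose in hypoxia by 0.79 (SE 0.16, adjusted p = 0.00277) and 0.66 (SE 0.15, adjusted p = 0.0133) and was higher in FIH-KO cells by 0.68 (SE 0.16, adjusted p = 0.00708) and 0.55 (SE 0.15, adjusted p = 0.0196). Lss (ENSMUSG00000033105.13, chr10:76367298-76392976), lanosterol synthase, was measured at 60.3 and 60.4 CPM in WT normoxia, 145 and 109.98 in WT hypoxia, 104 and 70.3 in FIH-KO normoxia and 156 and 173 in FIH-KO hypoxia, rising by 1.08 (SE 0.18, adjusted p = 8.10e-04) in WT cells and 0.92 (SE 0.17, adjusted p = 0.004201) in FIH-KO cells. In normoxia it was higher in FIH-KO cells by 0.53 (SE 0.18, adjusted p = 0.0408), and in hypoxia the difference was 0.36 ± 0.17 (adjusted p = 0.137).

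The genes that remove the methyl groups of lanosterol rose together. Cyp51 (ENSMUSG00000001467.6, chr5:4123416-4154751), the lanosterol 14-alpha demethylase, uses oxygen and was measured at 85.5 and 82.03 CPM in WT normoxia, 245 and 202 in WT hypoxia, 135 and 102 in FIH-KO normoxia and 214 and 298 in FIH-KO hypoxia. Its hypoxia response was 1.42 (SE 0.17, adjusted p = 1.34e-04), 2.67-fold, in WT cells and 1.11 (SE 0.17, adjusted p = 0.00119), 2.16-fold, in FIH-KO cells. In normoxia both FIH-KO libraries were above both WT libraries (0.50 (SE 0.17, adjusted p = 0.0464)), and in hypoxia the genotypes overlapped. Msmo1 (ENSMUSG00000031604.11, chr8:65170603-65186830), the sterol C4-methyl oxidase, also uses oxygen and was measured at 78.6 and 80.3 CPM in WT normoxia, 174 and 171 in WT hypoxia, 160.02 and 101 in FIH-KO normoxia and 232 and 293 in FIH-KO hypoxia. It passed in all 4 comparisons: 1.12 (SE 0.18, adjusted p = 8.32e-04) and 1.01 (SE 0.18, adjusted p = 0.00313) with hypoxia, and 0.72 (SE 0.18, adjusted p = 0.0118) and 0.61 (SE 0.18, adjusted p = 0.0246) in FIH-KO cells. Nsdhl (ENSMUSG00000031349.5, chrX:71961712-72002129) and Hsd17b7 (ENSMUSG00000026675.13, chr1:169777093-169796813), a dehydrogenase and a reductase that complete the removal at C4, passed in all 4 as well. Nsdhl was measured at 32.2 and 30.4 CPM in WT normoxia, 56.9 and 50.5 in WT hypoxia, 88.3 and 50.4 in FIH-KO normoxia and 96.97 and 144 in FIH-KO hypoxia. In normoxia the FIH-KO level was 2.22-fold that of WT cells, and in hypoxia 2.24-fold, with log2 fold changes of 1.15 (SE 0.24, adjusted p = 0.00372) and 1.16 (SE 0.23, adjusted p = 0.00301). Its response to hypoxia was 0.78 (SE 0.24, adjusted p = 0.0245) in WT cells and 0.79 (SE 0.23, adjusted p = 0.0323) in FIH-KO cells. The FIH-KO normoxia libraries of Nsdhl differed by more than the WT hypoxia and WT normoxia means did. Hsd17b7 was measured at 19.9 and 17.6 CPM in WT normoxia, 38.9 and 33.5 in WT hypoxia, 36.4 and 27.8 in FIH-KO normoxia and 61.1 and 75.2 in FIH-KO hypoxia. It rose in hypoxia by 0.95 (SE 0.17, adjusted p = 0.00145) and 1.09 (SE 0.16, adjusted p = 0.00102) and was higher in FIH-KO cells by 0.77 (SE 0.17, adjusted p = 0.00528) and 0.91 (SE 0.16, adjusted p = 0.00164).

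The later steps of the pathway are given next. Tm7sf2 (ENSMUSG00000024799.17, chr19:6112851-6118403), a sterol C14 reductase, was measured at 4.24 and 5.62 CPM in WT normoxia, 13.9 and 13.3 in WT hypoxia, 11.9 and 8.05 in FIH-KO normoxia and 15.5 and 22.6 in FIH-KO hypoxia. It rose 2.75-fold in WT cells (1.46 (SE 0.26, adjusted p = 0.00137)) and 1.91-fold in FIH-KO cells (0.94 (SE 0.24, adjusted p = 0.0198)), and in normoxia it was higher in FIH-KO cells by 1.01 (SE 0.26, adjusted p = 0.0126). Sc5d (ENSMUSG00000032018.15, chr9:42162891-42175605), the oxygen-using sterol C5 desaturase, was measured at 94.7 and 105 CPM in WT normoxia, 155 and 154 in WT hypoxia, 165 and 132 in FIH-KO normoxia and 169.7 and 240.1 in FIH-KO hypoxia. It rose in WT cells by 0.63 (SE 0.16, adjusted p = 0.0103) and was higher in FIH-KO cells in normoxia by 0.58 (SE 0.16, adjusted p = 0.0177). In FIH-KO cells the hypoxia libraries lay above the normoxia libraries without passing (0.46 ± 0.16, adjusted p = 0.0654). Dhcr7 (ENSMUSG00000058454.16, chr7:143376740-143402149), the reductase that makes cholesterol from 7-dehydrocholesterol, was measured at 39.2 and 44.7 CPM in WT normoxia, 55.8 and 57.7 in WT hypoxia, 81.4 and 60.01 in FIH-KO normoxia and 81.4 and 98.4 in FIH-KO hypoxia. It was higher in FIH-KO cells by 0.75 (SE 0.16, adjusted p = 0.00389) in normoxia and 0.66 (SE 0.15, adjusted p = 0.00736) in hypoxia, while its hypoxia response of 0.43 ± 0.16 in WT cells just missed the threshold (adjusted p = 0.0501). Ebp (ENSMUSG00000031168.15, chrX:8050773-8059795), a sterol isomerase, had 8.93 to 16.4 CPM and passed in no comparison, with log2 fold changes from -0.06 to 0.50. Stard4 (ENSMUSG00000024378.10), a carrier that moves cholesterol between membranes, was measured at 85.7 and 89.9 CPM in WT normoxia, 122 and 120.00 in WT hypoxia, 96.6 and 71.9 in FIH-KO normoxia and 105 and 152 in FIH-KO hypoxia. It rose in FIH-KO cells by 0.61 (SE 0.17, adjusted p = 0.02900), had 0.46 ± 0.17 in WT cells (adjusted p = 0.0547), and the genotypes overlapped.

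**Figure D3:**
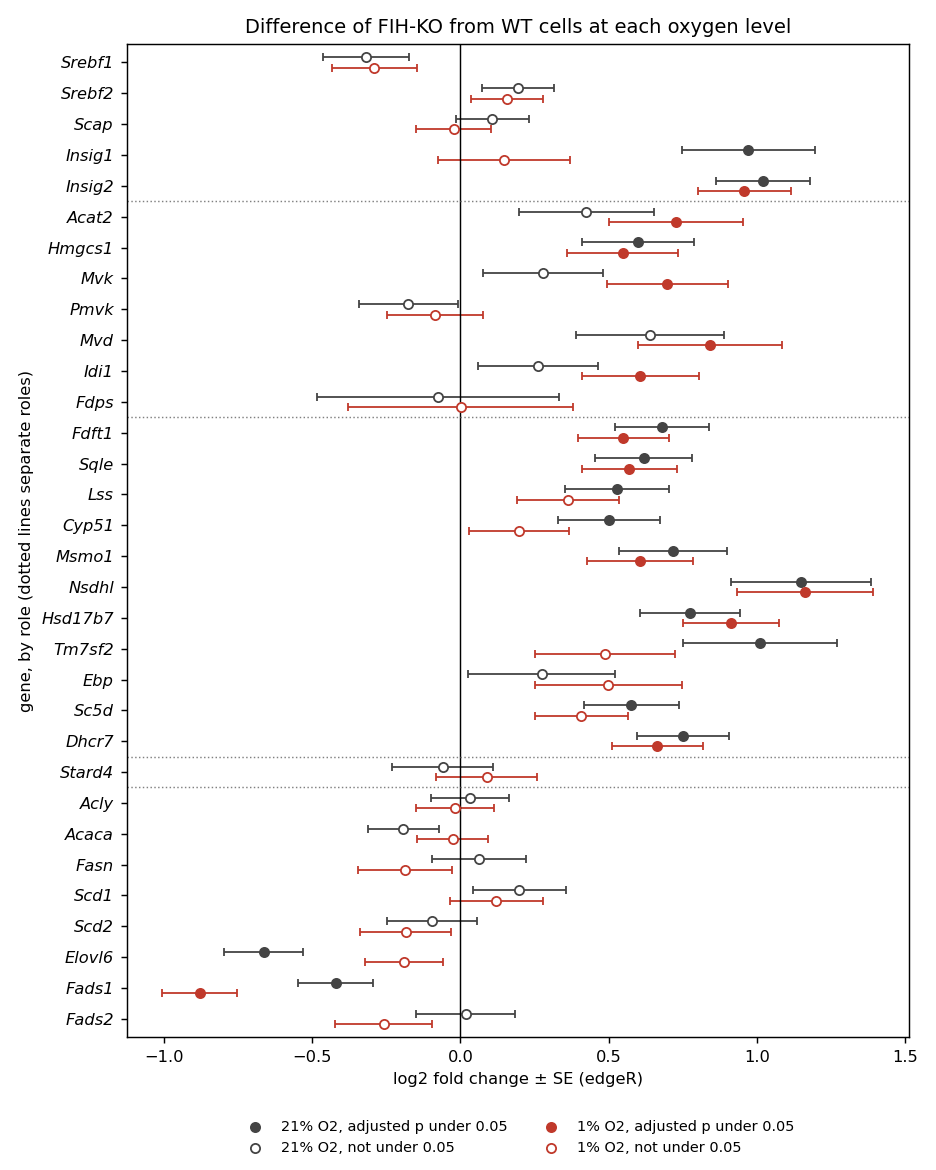
Log2 fold change of FIH-KO against WT cells for each gene (± SE, edgeR) in normoxia (grey) and hypoxia (red). Filled points passed the adjusted p of 0.05: they lie above 0 among the sterol enzymes and Insig genes, and below 0 for Elovl6 and Fads1.

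Of the 8 fatty acid enzymes, 7 rose in hypoxia in either genotype, beside 16.9% of all tested genes in WT cells and 8.84% in FIH-KO cells. The medians of the 8 were 0.93 in WT cells and 0.75 in FIH-KO cells. Acly (ENSMUSG00000020917.18, chr11:100367165-100440756), ATP citrate lyase, supplies cytosolic acetyl-CoA and was measured at 337 and 320.1 CPM in WT normoxia, 691 and 609.8 in WT hypoxia, 377 and 295 in FIH-KO normoxia and 629 and 657 in FIH-KO hypoxia. It rose by 0.99 (SE 0.13, adjusted p = 2.52e-04) and 0.94 (SE 0.13, adjusted p = 7.46e-04). Fasn (ENSMUSG00000025153.10, chr11:120696672-120715995), fatty acid synthase, was measured at 460.1 and 466 CPM in WT normoxia, 1246 and 878 in WT hypoxia, 434 and 534 in FIH-KO normoxia and 915 and 953 in FIH-KO hypoxia. It rose 2.29-fold in WT cells (1.20 (SE 0.16, adjusted p = 2.44e-04)) and 1.93-fold in FIH-KO cells (0.95 (SE 0.16, adjusted p = 0.00217)). Acaca (ENSMUSG00000020532.19, chr11:84020476-84292477), the acetyl-CoA carboxylase of the committed step, was measured at 192 and 172 CPM in WT normoxia, 237 and 226 in WT hypoxia, 161 and 157 in FIH-KO normoxia and 204 and 250.4 in FIH-KO hypoxia. Its rise was smaller, 0.35 (SE 0.12, adjusted p = 0.0422) in WT cells and 0.52 (SE 0.12, adjusted p = 0.0129) in FIH-KO cells. For all 3 of these genes the hypoxia libraries lay above the normoxia libraries within each genotype.

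The desaturases use oxygen as a substrate. Scd2 (ENSMUSG00000025203.7, chr19:44281613-44295303) and Scd1 (ENSMUSG00000037071.4, chr19:44382894-44399154), stearoyl-CoA desaturases, make monounsaturated fatty acids. Scd2 was measured at 1539 and 1759 CPM in WT normoxia, 3975 and 3473 in WT hypoxia, 1749.8 and 1338 in FIH-KO normoxia and 3145 and 3409.6 in FIH-KO hypoxia, and rose by 1.18 (SE 0.15, adjusted p = 2.07e-04) and 1.09 (SE 0.15, adjusted p = 7.29e-04). Scd1 was measured at 382 and 419 CPM in WT normoxia, 795 and 745 in WT hypoxia, 533 and 387 in FIH-KO normoxia and 753 and 924 in FIH-KO hypoxia, and rose by 0.94 (SE 0.16, adjusted p = 9.25e-04) and 0.87 (SE 0.16, adjusted p = 0.00331). Fads2 (ENSMUSG00000024665.9, chr19:10038130-10079203), the delta-6 desaturase of polyunsaturated fatty acids, was measured at 132 and 161 CPM in WT normoxia, 300.4 and 252 in WT hypoxia, 157 and 140.4 in FIH-KO normoxia and 190.3 and 272 in FIH-KO hypoxia, with a rise of 0.91 (SE 0.17, adjusted p = 0.00161) in WT cells and 0.64 (SE 0.17, adjusted p = 0.0211) in FIH-KO cells. These 5 genes, Acly, Fasn, Scd1, Scd2 and Fads2, did not pass between genotypes at either oxygen level. The 95% intervals of the log2 difference in normoxia were -0.25 to 0.32 for Acly, -0.28 to 0.41 for Fasn, -0.14 to 0.54 for Scd1, -0.43 to 0.24 for Scd2 and -0.34 to 0.38 for Fads2. In hypoxia they were -0.30 to 0.27, -0.53 to 0.16, -0.22 to 0.46, -0.52 to 0.15 and -0.62 to 0.10 in the same order. These intervals bound the differences that the data allow.

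Elovl6 and Fads1 departed from the other fatty acid enzymes. Elovl6 (ENSMUSG00000041220.11, chr3:129326004-129432144), an elongase of saturated and monounsaturated chains, was measured at 205 and 208 CPM in WT normoxia, 201 and 221 in WT hypoxia, 128 and 133 in FIH-KO normoxia and 159 and 212 in FIH-KO hypoxia. In normoxia it was lower in FIH-KO cells, at -0.66 (SE 0.13, adjusted p = 0.00331), and in hypoxia the genotypes overlapped (-0.19 ± 0.13, adjusted p = 0.318). It rose in hypoxia in FIH-KO cells by 0.51 (SE 0.13, adjusted p = 0.0219) and had 0.03 ± 0.13 in WT cells (adjusted p = 0.868). Fads1 (ENSMUSG00000010663.6, chr19:10160167-10174241), the delta-5 desaturase, was measured at 125 and 149 CPM in WT normoxia, 198 and 192 in WT hypoxia, 108 and 96.2 in FIH-KO normoxia and 96.97 and 115 in FIH-KO hypoxia. Every FIH-KO library lay below every WT library of the same oxygen level, with log2 fold changes of -0.42 (SE 0.13, adjusted p = 0.02598) in normoxia and -0.88 (SE 0.13, adjusted p = 4.65e-04) in hypoxia. It rose in hypoxia in WT cells by 0.51 (SE 0.13, adjusted p = 0.00876), whereas the FIH-KO libraries overlapped (0.05 ± 0.13, adjusted p = 0.831). The difference between these responses is 1 of the 3 named above that did not pass after adjustment.

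**Figure D4:**
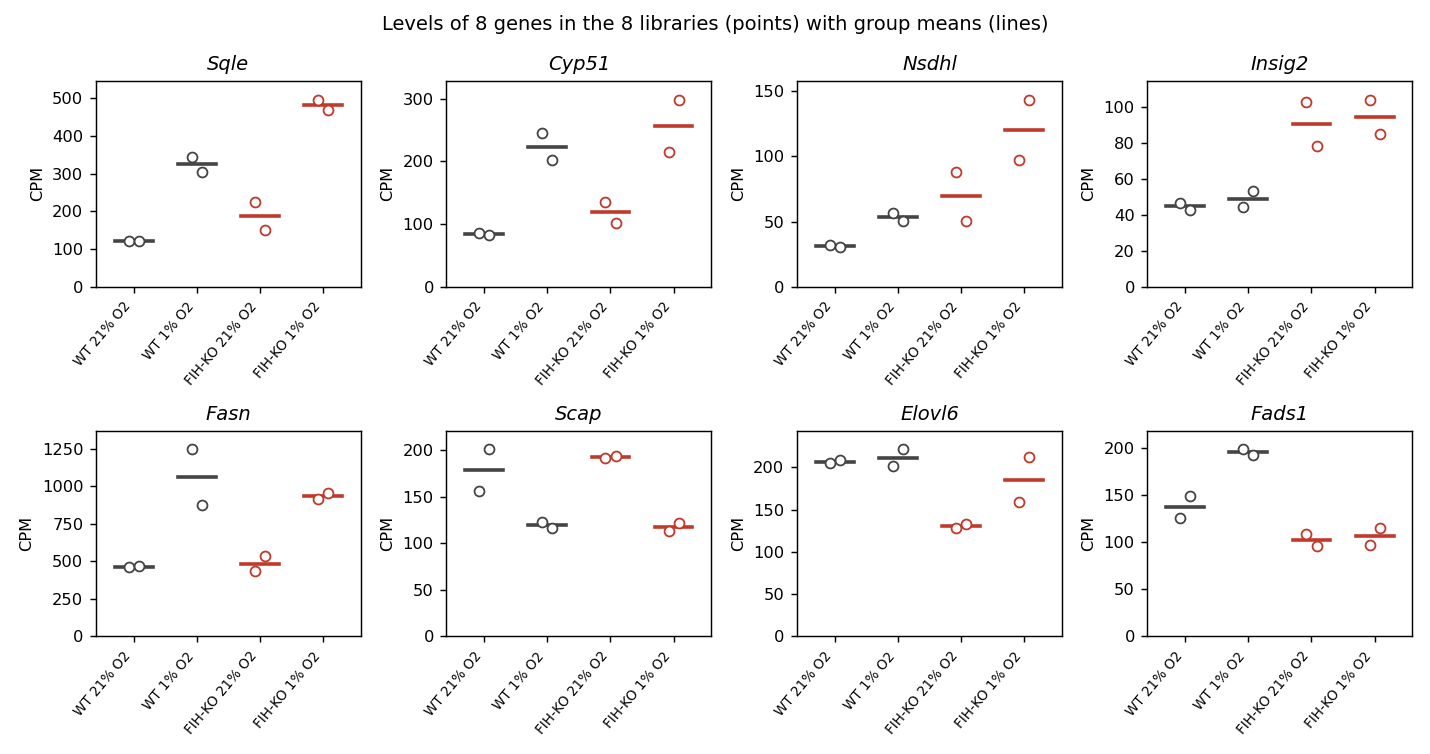
CPM of 8 genes, 1 panel each with an axis from 0, in the 8 libraries (points) with group means (lines), WT in grey and FIH-KO in red. Sqle, Cyp51, Nsdhl and Fasn are higher in hypoxia in both genotypes and Scap is lower, Insig2 is higher in all 4 FIH-KO libraries, and Elovl6 and Fads1 have their lowest means in FIH-KO normoxia.

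Levels of different genes were compared per length, as reads per kilobase of exon and per unit of TMM-scaled library size used for CPM (mean ± SD, n = 2). In WT normoxia the most abundant transcripts were those of Scd2, at 219 ± 20.7, Scd1, at 55.6 ± 3.63, and Fasn, at 39.6 ± 0.377. Scd2 was above Scd1 by more than their spread, and so was Scd1 above Fasn. Srebf2 (31.6 ± 2.16), Fads1 (24.4 ± 2.997) and Elovl6 (24.3 ± 0.305) followed, and the difference between the last 2 was within the SD of Fads1. Among sterol enzymes Hmgcs1 was highest, at 23.7 ± 0.0779, and Mvk (2.42 ± 0.02497), Ebp (2.38 ± 0.169), Tm7sf2 (1.002 ± 0.199) and Fdps (0.563 ± 0.146) were lowest. In hypoxia Scd2 reached 495 ± 47.2 in WT cells and 435 ± 24.9 in FIH-KO cells. Sqle went from 13.8 ± 0.0121 in WT normoxia to 54.4 ± 2.09 in FIH-KO hypoxia. Exon lengths join every annotated isoform, which lowers the per-length level of genes with long rare isoforms. The level of Fdps is also uncertain because processed pseudogenes share sequence with it.

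The enzymes that consume oxygen were compared with the others. All 8 of them (Sqle, Cyp51, Msmo1, Sc5d, Scd1, Scd2, Fads1 and Fads2) rose in hypoxia in WT cells, and their median was 1.03 on the log2 scale. Of the 18 enzymes that do not, 12 rose, with a median of 0.79. In FIH-KO cells 6 of 8 rose (median 0.94) and 13 of 18 (median 0.84). Of all tested genes 16.9% rose in WT cells and 8.84% in FIH-KO cells. Since genes of a pathway are not independent, the difference between the medians was not tested. Between genotypes, 4 of the 8 were higher and 1 lower in normoxia, and 2 higher and 1 lower in hypoxia. Of the other 18, 7 were higher and 1 lower in normoxia, and 9 higher and 0 lower in hypoxia. Over all tested genes 15.2% were higher and 13.0% lower in normoxia, and 14.1% and 13.9% in hypoxia. A count of 1 lower gene among the 8 is near those shares.

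Chromosomes 3 and 19 were lower in FIH-KO than in WT cells over all their tested genes, with medians of -0.36 and -0.38 in normoxia and -0.41 and -0.45 in hypoxia. Pmvk, Elovl6 and Fdps lie on chromosome 3, and Tm7sf2, Scd1, Scd2, Fads1 and Fads2, like Hif1an, on chromosome 19. The 20 tested genes nearest to Elovl6 had a median of -0.39 in normoxia and -0.58 in hypoxia, beside -0.66 and -0.19 for Elovl6 itself. Those nearest to Fads1 had -0.37 and -0.39, beside -0.42 and -0.88 for Fads1. The lower level of Fads1 in normoxia was thus near that of its surroundings, and in hypoxia 3 of the 20 neighbors were lower than Fads1. Tm7sf2 stood out in the other direction, at 1.01 in normoxia against 0.02 for its neighbors, and Scd1, at 0.20, against -0.42. Nsdhl, on chromosome X, had 1.15 against 0.12 for its neighbors, 19 of 20 of which were below it at either oxygen level. Some chromosomes were higher in FIH-KO cells, among them chromosome 10, with medians of 0.19 in normoxia and 0.14 in hypoxia. Lss lies there and had 0.53 and 0.36, beside 0.35 and 0.47 for its neighbors, of which 11 and 6 of 20 were below it. Every other sterol enzyme lay above the median of its neighbors at both oxygen levels. A copy number change in the FIH-KO cells was not tested.

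**Figure D5:**
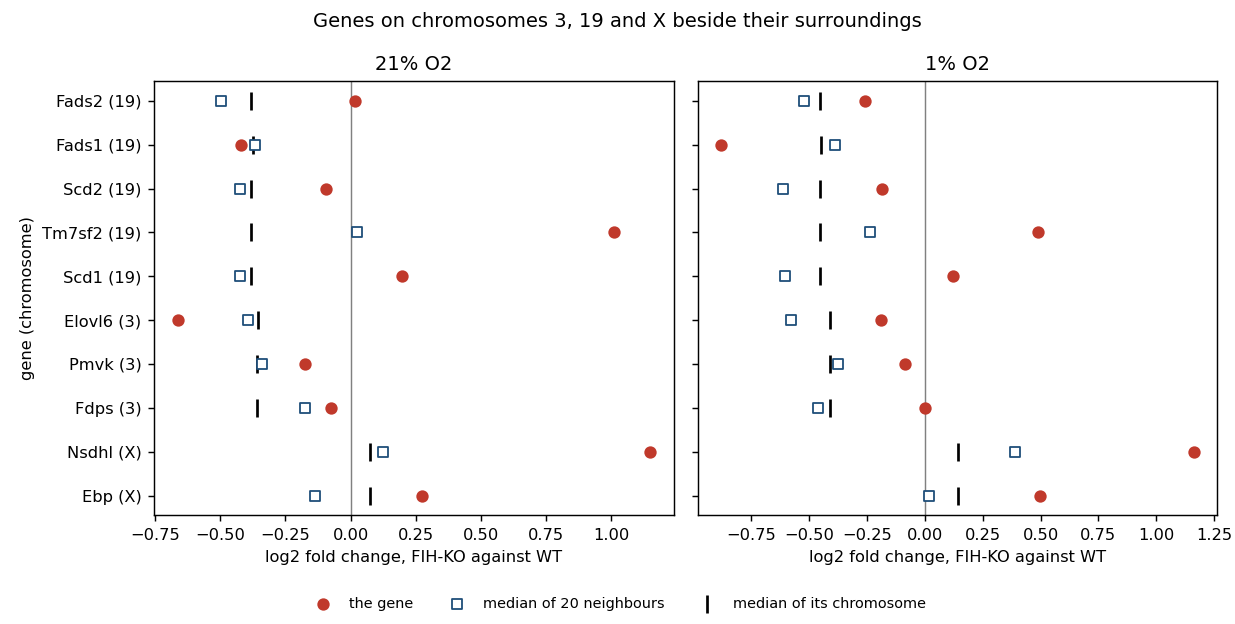
Log2 fold change of FIH-KO against WT cells for the 10 genes on chromosomes 3, 19 and X (red), beside the median of the 20 nearest tested genes (squares) and of the chromosome (bars), in normoxia and hypoxia. The medians of chromosomes 3 and 19 lie at -0.36 and -0.38 in normoxia, and Fads1 in hypoxia and Elovl6 in normoxia lie below the median of their chromosome by 0.43 and 0.31.

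A list of 38 other genes of sterol and fatty acid metabolism, of which 35 were tested, was counted in the same way. In hypoxia 14 rose and 2 fell in WT cells, where 16.9% of all tested genes rose and 15.5% fell, and 12 rose and 0 fell in FIH-KO cells, against 8.84% and 8.0%, with medians of 0.22 and 0.25. The smallest adjusted p among those that rose belonged to Trib3, a pseudokinase of the integrated stress response (3.77 ± 0.31 in WT cells), Soat1, which esterifies cholesterol (1.13 ± 0.12), and Fads3, a desaturase relative (1.43 ± 0.16). In FIH-KO cells they were Trib3 (3.27 ± 0.31), Soat1 (0.93 ± 0.12) and Acsl4, which activates long-chain fatty acids (0.83 ± 0.12). Mbtps1, the protease that first cleaves SREBPs, and Dhdds, of dolichol synthesis, were lower in WT cells (-0.39 ± 0.11 and -0.34 ± 0.12). Between genotypes 8 were higher and 1 lower in normoxia, against 15.2% and 13.0% of all tested genes, and 5 higher and 2 lower in hypoxia, against 14.1% and 13.9%. The share that was higher in hypoxia was thus near that of all genes. Mylip, a ubiquitin ligase induced by liver X receptors, was higher in FIH-KO cells at 1.98 ± 0.19 in normoxia and 1.94 ± 0.19 in hypoxia. Acss2, which makes acetyl-CoA from acetate, was higher at 1.60 ± 0.21 and 1.30 ± 0.20, and it also rose with hypoxia (1.57 ± 0.21 and 1.27 ± 0.20). Lpin1, a phosphatidate phosphatase, was higher in normoxia (1.58 ± 0.21), and Hsd17b12, of fatty acid elongation, in hypoxia (0.46 ± 0.10). Erlin1, on chromosome 19, was lower in FIH-KO cells at -0.61 ± 0.12 and -0.60 ± 0.12, and Fads3, also on chromosome 19, in hypoxia at -0.48 ± 0.15. All values are log2 fold changes ± SE that passed the same test.

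Some counts cannot be assigned with certainty, since the strand setting of the counting is not given in the sources used here. Exons of an antisense gene cover 28.3% of the exon length of Cyp51, 24.8% of Fdft1, 20.5% of Mvd and 15.8% of Fads1. Exons of Vps51 on the same strand cover 10.8% of Tm7sf2. Of the 50-base words of its transcripts, Acaca shares 28.2% with 378 other genes, first among them the processed pseudogene Gm5182, which had 30 to 66 counts. Acat2 shares 18.1%, with Acat3 (1 to 9 counts) first. Idi1 shares 17.0% and Fdps 9.37%, mostly with their own processed pseudogenes, Tm7sf2 8.25% with Vps51, and Fdft1 7.30% with the processed pseudogene Gm6781 (2 to 8 counts). Hmgcs1 shares 6.02% and Dhcr7 5.81%, each with over 100 genes, and the other members share at most 3.06%.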

How the data were processed

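RNA-Seq of WT and FIH-KO LLC cells in normoxia and hypoxia gave 8 libraries, 2 in each of 4 groups taken from the sample labels. STAR was the aligner and HTSeq the counter that the authors named. Their table, as deposited, holds raw counts for 53700 genes that had not been normalized. Its library totals were 14519731 to 18177016 counts. The annotation release, the strand setting and the treatment of reads that map to several places are not given in the sources used here.

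Counts were analyzed in R 4.3.3 with edgeR 4.0.16 (filterByExpr, TMM, 1 quasi-likelihood fit with 4 group means, Benjamini-Hochberg adjustment over all 13933 tested genes, threshold 0.05). The common biological coefficient of variation was 11.7%. Alternatives were DESeq2 1.42.0, RLE and upper-quartile scaling, 2 other filters (1 count in any library, 10 in every library), the 4 libraries of a comparison alone, the replicate number as a block and each library left out. Positions are from GENCODE vM39 (GRCm39), in which 52610 identifiers matched, and promoter letters from RefSeq. Plots used Python 3.11.15, pandas 2.3.3 and matplotlib 3.10.9.

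The genes and lists were chosen with earlier results of these data known. Every one of the 32 genes is named, and those called in at least 1 comparison between groups are given with all library values. Other pathway genes are named up to 3 per direction and comparison, by adjusted p.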

Additional observations from a re-analysis of the deposited data

How the results depend on the processing

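Of 1470 repeated values (98 fold changes of single genes under 15 alternative settings), 1305 kept their direction and their side of the threshold, 111 no longer passed, 26 newly passed and 28 changed sign. When libraries were left out, the number of all tested genes called moved, and so did the counts among the pathway genes. The latter are given next as the lowest and highest count when each library was left out in turn. In WT cells hypoxia raised 14 to 22 genes and lowered 0 to 2, and it lowered 2 when only the 4 libraries of the comparison were fitted. In FIH-KO cells it raised 11 to 22. Between genotypes, 1 to 15 were higher and 1 to 2 lower in normoxia, and 4 to 15 higher and 1 to 3 lower in hypoxia. With no filter beyond 1 count in any library, 1 gene (Insig1) differed between genotypes in its response. The signs that changed belonged to values that had not passed. When libraries were left out, the response to hypoxia in WT cells ran from -0.15 to 0.24 for Srebf1, -0.019 to 0.22 for Insig2 and -0.039 to 0.063 for Elovl6. In FIH-KO cells it ran from -0.013 to 0.23 for Srebf1, -0.65 to 0.028 for Insig1, -0.099 to 0.29 for Insig2 and -0.080 to 0.20 for Fads1. The difference between genotypes in normoxia ran from -0.091 to 0.28 for Scap, -0.11 to 0.78 for Acat2 and -0.025 to 0.46 for Idi1. In hypoxia it ran from -0.071 to 0.069 for Scap, -0.033 to 0.39 for Insig1, -0.056 to 0.46 for Cyp51 and -0.41 to 0.046 for Elovl6. Scap in hypoxia was at 0.015 with no filter beyond 1 count and at 0.0058 in the fit of 4 libraries. The median of the 8 fatty acid enzymes between genotypes in hypoxia, an alternative chosen after seeing the data, ran from -0.23 to 0.031. The cause of these changes was not tested. With the replicate number as a block, the counts were 20 higher and 1 lower in WT cells, 21 and 1 in FIH-KO cells, 13 and 2 between genotypes in normoxia and 12 and 1 in hypoxia, and 0 genes differed in their response. The labels do not tie equal numbers to a shared batch, and deviations of paired numbers correlated at -0.01 to 0.19. Depth limits Fdps most, with 25 to 89 counts.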
